A study of Xenopus laevis with 40 samples.

Results

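The 150 genes described here are the late genes of the explanted frog epidermis: those whose RNA level in uninjected explants stood highest at stage 32 (st32) relative to every earlier stage sampled. For each gene the mean level per stage was taken from the 8 uninjected libraries, in CPM, the count scaled to one fixed total for every library. The score is the log2 ratio of the st32 mean to the highest of the 3 earlier means, with 1 CPM added to both. Of 51017 gene IDs in the count files, 48349 have a symbol. Dropping provisional symbols and a set of name prefixes (among them those of keratins, collagens, claudins, tubulins, axonemal dyneins and proton pump subunits) left 32571, and the 150 highest scores were kept. The genes were thus chosen by their uninjected CPM levels, and those levels are given as a description with no test. All tests below compare injected explants only, which came from the same 2 experiments as the uninjected ones. The fit behind these tests held all 40 libraries, so uninjected ones also entered the low-count filter, the scaling and the shared spread.

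RNA of whole animal cap explants of Xenopus laevis was sequenced in bulk and counted per gene in 40 libraries. The cap is tissue cut from the animal pole of wild-type (wt) stage 8 embryos that becomes a mucociliary epidermis in saline culture. Uninjected control embryos were compared with embryos that received 4 injections into the animal hemisphere at the 4-cell stage. The injected agents were suh-dbm mRNA at 100 ng/ul (a form of Su(H), the DNA-bound mediator of Notch, that no longer binds DNA and blocks Notch signalling), suh-dbm plus dnmcidas mRNA at 100 ng/ul each (dominant-negative multicilin), nicd mRNA at 120 ng/ul (the intracellular domain of Notch, which raises Notch signalling), or 3 pmol of a foxa1 morpholino. The sampled Nieuwkoop-Faber stages ran from st10.5 and st16 to st25 and finally st32, with 1 library per group in each of 2 experiments, which used different females and fertilizations. Control embryos were not injected, so injection itself and the agent cannot be told apart, and the number of explants pooled for a library is not given in the sources used here.

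Late tailbud epidermis of Xenopus is a stratified tissue in which goblet, multiciliated, ionocyte and small secretory cells face the water above a layer of basal cells. The underlying basement membrane carries laminins, small proteoglycans and matricellular proteins, and is cut by secreted metalloproteases. An embryo of this age still lives on yolk, and its skin is the first surface to meet microbes and dissolved chemicals, for which epithelia use pattern receptors, chemokines and conjugating enzymes. In a bulk sample, a lower level through fewer cells of a type and one through less RNA per cell cannot be told apart.

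Library totals ranged from 20177357 to 99359750 counts (median 36312132), and all 150 genes passed the filter on low counts that left 31648 genes for testing. The labels were checked by the injected transcripts, which at st10.5 were far above the uninjected libraries: rbpj.S (Su(H)) at 37710 and 41070 CPM with suh-dbm against 16.2 and 11.1 CPM, mcidas.S at 4542 and 4200 CPM with dnmcidas against 0.701 and 3.69 CPM, and notch1.S at 18800 and 9964 CPM with nicd against 135 and 142 CPM. A morpholino that acts on translation cannot be checked this way. The summed level of 11 goblet or outer-layer marker copies in uninjected explants was 993 and 1466 CPM at st10.5 and 20750 and 19300 CPM at st32. Most of the st32 sums came from itln1.L (10410 and 6709 CPM) and otog.L (9099 and 11210 CPM). Not all copies rose, and both grhl3 copies were lower at st32 than at st10.5. At st32 uninjected ionocyte markers summed to 2173 and 3690 CPM and multiciliated cell markers to 286 and 348 CPM. Markers of tissues that the explant should lack were low there: myeloid cells 3.53 and 5.44 CPM, endothelium 3.02 and 2.55 CPM, notochord and cartilage 5.16 and 2.47 CPM, endoderm 11.4 and 20.1 CPM, pigment cell and neural crest 16.8 and 34.0 CPM, neurons 19.6 and 43.0 CPM, and muscle 26.7 and 40.5 CPM. The blood list stood at 134 and 130 CPM, of which slc4a1.L, also an ionocyte gene, made up 132.5 and 123.2 CPM. Wherever 2 values are given without other words, the first is experiment 1 and the second experiment 2.

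In uninjected explants the 150 genes together took 0.0404% and 0.0540% of all counts at st10.5, 0.0313% and 0.0446% at st16, 0.236% and 0.238% at st25, and 1.56% and 0.882% at st32. Scores ran from 1.67 to 5.60 with a median of 2.04. The median st32 mean was 17.0 CPM against 2.23 CPM at st25, and 42 genes had an st25 mean below 1 CPM. The highest earlier stage was st25 for 131 genes, st10.5 for 17 and st16 for 2. Both st32 libraries lay above all 6 earlier uninjected libraries for 147 of the 150, as the rule favours (13.1% of all tested genes do). The genes nearest the limit were ripk3.S (score 1.69), ass1.S (1.69), mmp1.S (1.67), ntf3.L (1.67) and ldhb.L (1.67) inside it. Just outside stood mgarp.L (1.65), aldh1-A (1.65), suclg2.L (1.65), slc13a3.L (1.64) and kcnk1.L (1.64), so the limit falls in a continuous range and marks no gap.

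**Figure D1:**
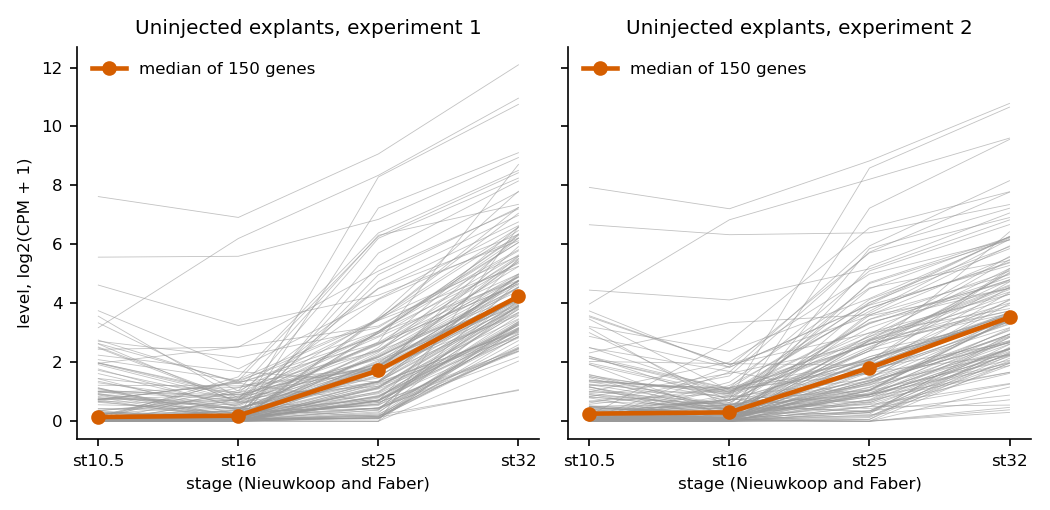
Level of each of the 150 genes (grey lines, log2(CPM + 1)) in the uninjected library of each stage, experiment 1 on the left and experiment 2 on the right, with the median over the genes in orange. Most lines are near 0 until st16, are higher at st25 and highest at st32, and the end point of the median is lower in experiment 2.

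The 2 experiments differed in the st32 levels of these genes. Experiment 1 was higher for 126 of the 150 uninjected genes and experiment 2 for 24. The difference was more than 2-fold in favour of experiment 1 for 66 genes and in favour of experiment 2 for 4, and 80 genes lay within 2-fold. The score computed from experiment 1 alone had a median of 2.48, and from experiment 2 alone 1.61. For 8 genes experiment 1 was over 10-fold higher, among them fgfbp1.S (95.7 and 3.71 CPM), apoe.L (44.6 and 3.398 CPM), dcn.L (8.77 and 0.463 CPM), slc1a4.L (9.26 and 0.309 CPM) and celf2.S (6.398 and 0.232 CPM). The same lean held in suh-dbm (130 genes higher in experiment 1, median log2 difference 1.04), suh-dbm plus dnmcidas (125, 1.17) and foxa1 morpholino (135, 1.497) explants at st32, but not with nicd (74, median -0.0035). Over all tested genes 45.3% to 48.6% were higher in experiment 1 at st32. At st25 the genes higher in experiment 1 numbered 55 of 150 in uninjected explants (median log2 difference -0.31) and 54 with suh-dbm plus dnmcidas (-0.28). They numbered 100 with suh-dbm (0.41), 107 with the morpholino (0.74) and 31 with nicd (-0.78). Over all tested genes 44.4% to 51.7% were higher in experiment 1 at st25. The female, the fertilization and, at st25 and st32, the dataset number in the file headers all change with the experiment, so these cannot be told apart.

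**Figure D2:**
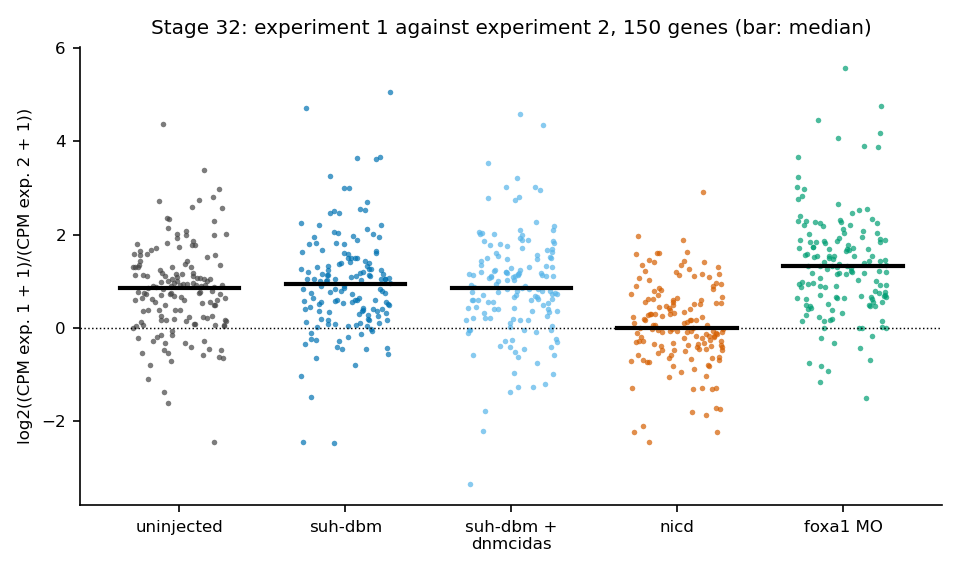
Ratio of the st32 level in experiment 1 to that in experiment 2, log2((CPM + 1)/(CPM + 1)), for each of the 150 genes (points) in each treatment, with the median as a bar and 0 dotted. Uninjected, suh-dbm, suh-dbm plus dnmcidas and foxa1 morpholino explants lie mostly above 0, and nicd explants are centred on it.

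The st32 level was also the highest of the 4 stages for most of the genes in injected explants, whose libraries the rule did not use. Recomputing the score within each treatment gave a median of 1.84 with suh-dbm, 1.81 with suh-dbm plus dnmcidas, 1.62 with nicd and 1.70 with the foxa1 morpholino, against -0.0751, -0.0854, -0.0750 and -0.102 over all IDs left by the rule. It was above 0 for 150, 148, 143 and 149 of the 150 genes. Both st32 libraries lay above the 6 earlier libraries of the treatment for 136, 132, 127 and 111 genes, where the share over all tested genes was 12.3%, 11.7%, 13% and 10.3%. The genes that would have entered the 150 on a treatment's own libraries numbered 112, 72, 58 and 101.

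Each injected treatment was tested for the step from st25 to st32 with edgeR's quasi-likelihood test, and genes count as called where the p adjusted over all 31648 genes by Benjamini and Hochberg is under 0.05. With suh-dbm 13 of the 150 rose (0.303% of all tested genes did). With suh-dbm plus dnmcidas 14 rose (0.351%), with nicd 47 (1.69%) and with the foxa1 morpholino 11 (0.521%). None of the 150 was called lower, either in this fit (0.43%, 0.199%, 2.32% and 0.645% of all tested genes), with the experiment as a block (1.07%, 0.562%, 3.91% and 1.38%) or with DESeq2, and of all 4 treatments only nicd had a gene with a fitted change below 0 (celf2.S, -0.31, edgeR adjusted p = 1). The median log2 change of the 150 was 2.40 with suh-dbm, 2.74 with suh-dbm plus dnmcidas, 2.50 with nicd and 2.45 with the morpholino, against 0 over all tested genes. In experiment 1 alone these medians were 2.57, 3.23, 2.91 and 2.71, and in experiment 2 alone 2.13, 1.79, 2.12 and 1.91. At an unadjusted p under 0.05, 112, 115, 104 and 111 of the 150 passed. The share of all tested genes at this cut was not counted, so these 4 counts have no background beside them. With the experiment as a block the calls numbered 33, 44, 68 and 38 (0.866%, 0.897%, 3.06% and 1.33% of all tested genes). Each count rested on single libraries: without the st25 library of experiment 1 no member was called in any of the 4 steps. With suh-dbm none was called without the st25 library of experiment 2 or the st32 library of experiment 1 either, and 12 without the other st32 library. With suh-dbm plus dnmcidas 5 were called without the st25 library of experiment 2, 2 without the st32 library of experiment 1 and 28 without that of experiment 2. With nicd these counts were 41, 9 and 17, and with the morpholino 0, 0 and 26.

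**Figure D3:**
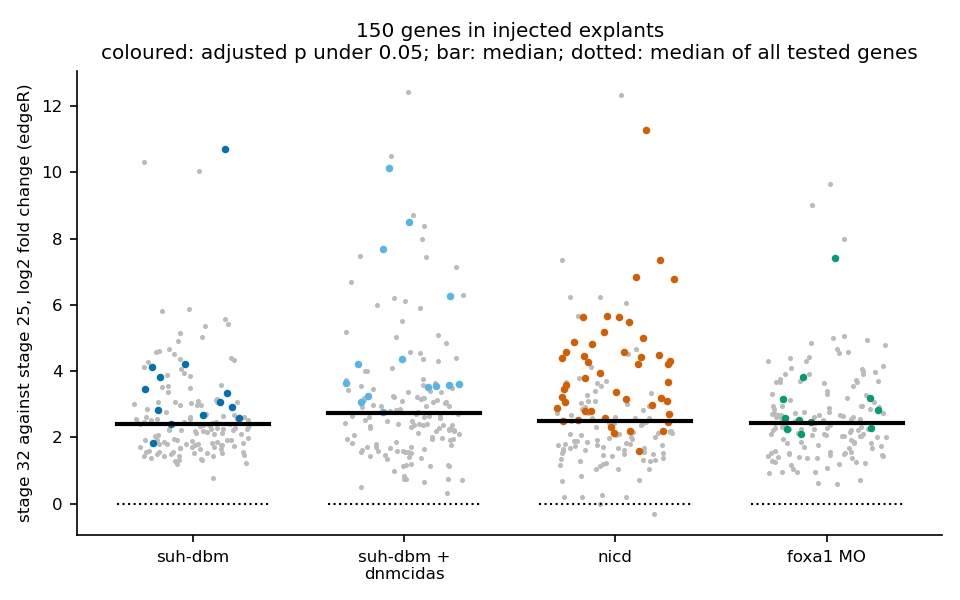
Log2 fold change (edgeR) from st25 to st32 of each of the 150 genes in the 4 injected treatments; coloured points have an adjusted p under 0.05, the bar is the median of the 150 and the dotted line that of all tested genes. The medians of 2.40 to 2.74 lie far above the dotted lines at 0, and nicd has the most coloured points.

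The rise was called in all 4 treatments for 3 genes, slc38a4.L, ldhb.S and tnfrsf19.L, and in 3 treatments for 8: pltp.L, htra3.L, lgmn.S, ddt.S, ctsz.S, anxa1.L, trpm8b.L and pgls.L. Another 10 were called in 2 treatments, 29 in 1 and 100 in none. With the experiment as a block these counts, from 4 treatments down to none, were 12, 14, 27, 39 and 58. Of all tested genes 0.0442% were called in 4 without the block, 0.107% in 3 and 97.8% in none. For 120 of the genes a role could be given, in 11 groups made after the genes were known. Where a role group's calls with the experiment as a block are given, the order is suh-dbm, suh-dbm plus dnmcidas, nicd and morpholino. In that order 0.303%, 0.351%, 1.69% and 0.521% of all tested genes rose without the block. With it 0.866%, 0.897%, 3.06% and 1.33% did. These shares stand behind all role counts below. A larger count with nicd or with the block is thus not particular to a role. The members named below as examples were in part chosen after their values were seen.

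Matrix and its processing formed the largest group, with 19 genes (median score 2.18). It holds the small leucine-rich proteoglycans lum.L, lum.S, dcn.L, ogn.L and optc.S, the laminin chain gene lamb4.L, the fibrillin gene fbn3.L, the matricellular gene sparc.L and the metalloprotease genes mmp1.S, mmp8.L, mmp8.S and mmp28.L. Uninjected lum.L had no count at st10.5, 10.6 and 15.2 CPM at st25, and 222 and 76.4 CPM at st32. Lumican binds collagen fibrils, and its neighbour on the chromosome in the RefSeq annotation (build Xenopus_laevis_v10.1), decorin, is in the set as dcn.L. Uninjected sparc.L had 82.8 and 93.5 CPM at st25 and 364 and 220 CPM at st32, and mmp1.S, a collagenase gene, 78.3 and 60.8 CPM and then 163 and 285 CPM. In both, the st32 libraries lay above the st25 ones in both experiments, as the rule favours.

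With nicd 7 of the 19 matrix genes rose from st25 to st32 (median log2 change 3.27). That median includes changes fitted against groups with no count. With such groups set at a floor of 3 counts it was 2.54, close to 2.49 for the whole set of late genes. lum.L had 0.0589 and 0.225 CPM at st25 and 28.1 and 23.7 CPM at st32, a log2 change of 7.36 ± 1.63 (edgeR adjusted p = 0.0235). Here and below, the value after ± is the absolute log2 change divided by the square root of the test's F statistic. It is an approximate standard error. lum.S had no count in either st25 library and 12.7 and 2.70 CPM at st32, which is at least 204-fold higher at a floor of 3 counts over the group (adjusted p = 0.0138). egfl6.S, which encodes a secreted EGF-like protein of basement membranes, had 0.177 and 0.976 CPM and then 24.6 and 38.6 CPM, a change of 5.67 ± 1.33 (adjusted p = 0.0189). These 3 genes were near or at 0 with nicd at st25, whereas uninjected st25 libraries held 9.91 and 11.7 CPM of egfl6.S. lamb4.L had 2.86 and 6.06 CPM and then 87.8 and 114 CPM, a change of 4.42 ± 0.77 (adjusted p = 0.00326). The calls of lum.L, lum.S and egfl6.S were lost without 1 of the 4 nicd libraries in 4, 2 and 3 of the 4 cases. In the other steps 1, 2 and 1 matrix genes rose with suh-dbm, suh-dbm plus dnmcidas and the morpholino. With the experiment as a block 1, 8, 8 and 2 rose. Without it these were htra3.L with suh-dbm, mxra5.L and lamb4.L with dnmcidas added, and htra3.L again with the morpholino. htra3.L, a secreted serine protease gene, had 0.688 and 1.15 CPM at st25 and 28.04 and 5.28 CPM at st32 with suh-dbm (4.13 ± 0.89, adjusted p = 0.0277). mxra5.L with suh-dbm plus dnmcidas had 0 and 0.167 CPM and then 2.21 and 31.6 CPM (7.68 ± 1.71, adjusted p = 0.0477), so nearly all of its st32 level lay in experiment 2.

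Because proteoglycan and matrix genes also mark mesenchyme, a list of 36 copies of mesenchymal genes was added after the members were known. lum.L, lum.S, dcn.L and ogn.L belong to it, and the other 32 copies summed to 148 and 131 CPM at st25 and 407 and 146 CPM at st32 in uninjected explants, with 12 of them at 0 in both st32 libraries. col1a2.L made up 260.7 and 77.2 CPM of the st32 sums. At st32 the same sums were 619 and 102 CPM with suh-dbm, 442 and 133 CPM with suh-dbm plus dnmcidas, 273 and 51.8 CPM with the morpholino, and 3128 and 793 CPM with nicd, where fn1.S alone gave 2637 and 518 CPM. From st25 to st32 with nicd, 4 of the 26 tested copies rose (1.69% of all tested genes did), of which lum.L, lum.S and ogn.L are among the 150 and fn1.S is not, and 2 fell (pdgfra.L and foxc1.L, against 2.32%). The fn1.S level with nicd was 414.7 and 514.2 CPM at st25 and 2637 and 518.4 CPM at st32, so nearly all of its rise lay in experiment 1. With nicd the 32 copies outside the 150 summed to 607.5 and 692.7 CPM at st25. The sums were higher in experiment 1 at st32 in all 5 treatments. Their part in the matrix values was not tested.

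Proteases outside the matrix group numbered 10, mostly of lysosomes or of the carboxypeptidase family, and 3, 0, 3 and 2 of them rose (5, 3, 4 and 3 with the block). Uninjected lgmn.S, the gene of the lysosomal protease legumain, had 9.72 and 14.5 CPM at st25 and 87.8 and 75.8 CPM at st32. It rose with suh-dbm from 12.6 and 10.8 CPM to 73.2 and 55.3 CPM (2.40 ± 0.46, edgeR adjusted p = 0.0128), and with the morpholino from 12.8 and 12.04 CPM to 86.7 and 62.5 CPM (2.54 ± 0.46, adjusted p = 0.00892). With nicd it had 12.46 and 25.6 CPM and then 99.8 and 82.5 CPM (2.19 ± 0.46, adjusted p = 0.00872). Levels of lgmn.S at st32 were thus close in size in all 5 treatments, from 55.3 to 99.8 CPM. ctsz.S, a cathepsin gene, was called in the same 3 steps, with changes of 2.92, 2.46 and 2.18. cpa6.L had no count with suh-dbm at st25 and 7.58 and 2.43 CPM at st32, at least 114-fold higher at the floor of 3 counts (adjusted p = 0.0172).

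The 9 lipid genes include both copies of apoe, which encodes a lipoprotein ligand that carries cholesterol and phospholipid between cells, and pltp.L, the gene of phospholipid transfer protein. Uninjected apoe.S had at most 0.463 CPM at st10.5 and st16, 5.46 and 4.22 CPM at st25, and 419 and 85.1 CPM at st32. With nicd it had 1.35 and 3.83 CPM and then 167 and 107 CPM, a rise of 5.65 ± 1.59 (edgeR adjusted p = 0.0444) that was not called without any 1 of the 4 nicd libraries. In the other treatments the st32 values of apoe.S spread widely between experiments, at 365 and 37.3 CPM with suh-dbm, 634 and 30.0 CPM with dnmcidas added and 352 and 20.03 CPM with the morpholino, and no step was called without the block. With it, apoe.S was also called with dnmcidas added (adjusted p = 0.0181), and the lipid genes called numbered 2, 3, 4 and 4 against 1, 1, 3 and 0. With suh-dbm, pltp.L was closer between experiments, at 1.27 and 2.39 CPM and then 38.3 and 31.4 CPM (4.21 ± 0.99, adjusted p = 0.0492). That call was lost under RLE scaling and without any 1 of the 4 suh-dbm libraries. pltp.L also rose with suh-dbm plus dnmcidas, from 0.147 and 0.335 CPM to 16.5 and 19.96 CPM (6.28 ± 1.17, adjusted p = 0.0253), a call lost without 3 of the 4 libraries. With nicd it rose from 0.118 and 1.15 CPM to 4.12 and 20.9 CPM (4.20 ± 1.01, adjusted p = 0.0241). There its st32 values were further apart in ratio than those of apoe.S.

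Carbohydrate and energy metabolism held 10 genes. They encode enzymes of glycolysis, gluconeogenesis and the pentose phosphate pathway, among them lactate dehydrogenase B (ldhb.S, ldhb.L), gapdh.S, glucose-6-phosphatase catalytic genes (g6pc-like.1.L, g6pc2.L), pgls.L, ldhd.L and the mitochondrial acetyl-CoA synthetase gene acss1.L. Their summed uninjected level at st32 was 7622 and 3537 CPM. ldhb.S had 196 and 244 CPM at st10.5, 536 and 455 CPM at st25 and 4365 and 1760 CPM at st32 in uninjected explants. It rose in each injected treatment: from 636 and 428 to 4479 and 2222 CPM with suh-dbm (2.59 ± 0.53, edgeR adjusted p = 0.0193), from 67.7 and 122 to 1558 and 548 CPM with dnmcidas added (3.52 ± 0.56, adjusted p = 0.00528), from 57.8 and 95.0 to 619 and 643 CPM with nicd (2.97 ± 0.54, adjusted p = 0.00366), and from 513 and 321 to 4742 and 1429 CPM with the morpholino (2.83 ± 0.54, adjusted p = 0.0123). The log2 changes thus ran from 2.59 to 3.52. Within each experiment the lowest st25 and st32 values were those of nicd explants and of those with dnmcidas. pgls.L, which encodes an enzyme of the pentose phosphate pathway, rose in 3 steps by 1.82, 1.61 and 2.10 (suh-dbm, nicd and the morpholino). Of the 10 genes 3, 2, 4 and 2 rose, and 6, 4, 6 and 3 with the block.

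The 8 detoxification and redox genes include gstp1.L (a glutathione transferase), cyp3a4 (a cytochrome P450), aldh1a1.L (a retinaldehyde dehydrogenase), akr1c1.S, ces2, glrx.S, cyp2c18.L and ddt.S (D-dopachrome tautomerase). Uninjected gstp1.L had no count at st10.5, 72.9 and 33.4 CPM at st25 and 303 and 101 CPM at st32. ddt.S rose with suh-dbm plus dnmcidas from 1.21 and 4.81 CPM to 50.1 and 21.3 CPM (3.62 ± 0.69, edgeR adjusted p = 0.0246), with nicd from 0.766 and 3.13 CPM to 14.1 and 14.8 CPM (2.81 ± 0.67, adjusted p = 0.0198), and with the morpholino from 6.58 and 4.09 CPM to 76.6 and 25.2 CPM (3.19 ± 0.67, adjusted p = 0.0199). With nicd 4 of the 8 rose (ddt.S, gstp1.L, aldh1a1.L and cyp3a4), and with the block 3, 3, 5 and 5 rose. cyp2c18.L differed from the rest in nicd explants, where it stood at 20.4 and 38.7 CPM at st25 and 35.3 and 35.8 CPM at st32, so that its groups overlapped.

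Amino acid and one-carbon metabolism contributed 7 genes, of which 4 rose with nicd and 2 with suh-dbm. With the experiment as a block 4 rose with suh-dbm, 4 with nicd and 5 with the morpholino, where none was called without it, and none was called with dnmcidas added in either fit. aldh1l2.S, the gene of mitochondrial formyltetrahydrofolate dehydrogenase, had 2.47 and 1.71 CPM at st25 and 59.7 and 16.6 CPM at st32 in uninjected explants. With suh-dbm it rose from 3.10 and 0.797 CPM to 36.7 and 8.77 CPM (3.46 ± 0.80, edgeR adjusted p = 0.0402) and with nicd from 2.27 and 1.35 CPM to 17.3 and 11.5 CPM (2.90 ± 0.79, adjusted p = 0.0372). With dnmcidas added to suh-dbm its values were 5.46 and 3.10 CPM and then 9.36 and 3.72 CPM. ppm1k.L, which encodes the phosphatase that activates branched-chain keto acid breakdown, was called in the same 2 steps (3.07 and 3.23).

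The 15 immunity genes covered sensors (tlr4.S, nod1.L, nlrp3.L), signal transducers (irf3.L, ikbke.L, stat6.L, ripk3.S), chemokines (ccl21.S, cxcl14.L), genes of proteins that restrict viruses or bind bacterial lipid (ifitm3.L, ifitm3.S, bpi.L), parp10.S, the interferon receptor gene ifnar2.2.L and anxa1.L (annexin A1). Uninjected tlr4.S, whose mammalian protein binds bacterial lipopolysaccharide, had 0.448 and 0.776 CPM at st25 and 10.9 and 4.48 CPM at st32. nlrp3.L, an inflammasome sensor gene in mammals, had 1.93 and 0.867 CPM and then 11.9 and 2.70 CPM. ccl21.S had 4.04 and 2.74 CPM and then 73.0 and 10.3 CPM. All 15 genes had both uninjected st32 libraries above the earlier ones, which the rule that chose them by these levels favours. The 13 myeloid marker copies summed to 2.25 and 2.24 CPM at st25 and 3.53 and 5.44 CPM at st32 in the same libraries, and their part in these values was not tested. Few immunity genes were called: none with suh-dbm, anxa1.L with suh-dbm plus dnmcidas and with the morpholino, and anxa1.L, ifitm3.S and stat6.L with nicd. With the block 2, 4, 3 and 2 were called. anxa1.L rose with suh-dbm plus dnmcidas from 1.54 and 2.80 CPM to 18.7 and 32.2 CPM (3.58 ± 0.56, edgeR adjusted p = 0.00525). With nicd its st25 libraries were far apart at 6.01 and 44.4 CPM, and both lay below 228 and 138 CPM at st32 (2.81 ± 0.53, adjusted p = 0.0044).

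Signals and receptors numbered 13. fgfbp1.S and fgfbp2.L encode secreted carriers of fibroblast growth factors, wnt10a.L and wnt10a.S a Wnt ligand, kremen1.S a co-receptor of the Wnt inhibitor Dickkopf, tnfrsf19.L a receptor of the tumour necrosis factor family, sst.2 a somatostatin and ntf3.L neurotrophin-3. fgfbp1.S had the highest score of all (5.60), with 0 and 0.0913 CPM at st25 and 95.7 and 3.71 CPM at st32 in uninjected explants. With nicd it had no count at st25 and 23.8 and 8.08 CPM at st32, at least 413-fold higher at the floor of 3 counts, but no step of it was called (edgeR adjusted p = 0.109 with nicd) except the nicd step with the block (adjusted p = 0.0166). tnfrsf19.L was the even case, with 7.30 and 13.3 CPM and then 54.0 and 41.2 CPM in uninjected explants. It rose by 2.83 ± 0.58 with suh-dbm (adjusted p = 0.0182), 4.20 ± 0.63 with dnmcidas added (adjusted p = 0.00333), 3.16 ± 0.59 with nicd (adjusted p = 0.00393) and 2.29 ± 0.57 with the morpholino (adjusted p = 0.044). The call with dnmcidas was lost without 1 of its 4 libraries, the st25 library of experiment 1 (adjusted p = 0.226). fgfbp2.L rose with suh-dbm plus dnmcidas from 0 and 0.167 CPM to 44.6 and 12.98 CPM (8.50 ± 1.47, adjusted p = 0.0248), and wnt10a.L with nicd from 0.0589 and 0.175 CPM to 2.84 and 2.27 CPM (4.32 ± 1.24, adjusted p = 0.0496). In all 1, 4, 4 and 1 of the 13 rose, and 2, 6, 5 and 3 with the block.

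The 8 transcription factor genes were maf.L, creb3l1.L, creb5.L, elf3.L, elf3.S, klf3.L, klf15.L and pou3f1.L. Uninjected elf3.L, an Ets factor of epithelia in mammals, had 0.035 and 0.0489 CPM at st10.5, 3.60 and 5.25 CPM at st25 and 20.3 and 21.2 CPM at st32. klf15.L had 21.6 and 21.5 CPM at st25 and 79.8 and 74.8 CPM at st32. Both genes had close values in the 2 experiments. At the threshold, elf3.L (2.45 ± 0.57, edgeR adjusted p = 0.0186) and pou3f1.L (4.57 ± 1.24, adjusted p = 0.039) rose with nicd, and no factor was called in the other 3 steps without the block. With it 1, 3, 3 and 1 factors rose. creb3l1.L was uneven, with 16.5 and 2.93 CPM in uninjected explants and 30.1 and 4.36 CPM with suh-dbm at st32.

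Transporters and channels numbered 8, with 3 amino acid carriers (slc38a4.L, slc38a5.S, slc1a4.L), the iron exporter gene slc40a1.S, slc46a2.L, the potassium channel gene kcnj16.S and 2 genes of the TRP family of sensory channels, trpa1.L, whose mammalian protein opens to irritants, and trpm8b.L, related to the mammalian cold receptor. Uninjected slc38a4.L had 10 and 12.3 CPM at st25 and 132 and 71.1 CPM at st32. It rose from 17.3 and 11.3 to 131 and 60.4 CPM with suh-dbm (2.68 ± 0.64, edgeR adjusted p = 0.0478), from 3.96 and 4.22 to 56.7 and 35.6 CPM with dnmcidas added (3.54 ± 0.67, adjusted p = 0.0248), from 0.766 and 1.80 to 13.02 and 21.4 CPM with nicd (3.66 ± 0.69, adjusted p = 0.00473), and from 8.56 and 6.25 to 110 and 26.6 CPM with the morpholino (3.15 ± 0.66, adjusted p = 0.0199). In all 4 treatments both st32 libraries lay above both st25 ones, at different levels. Uninjected trpm8b.L had 0.756 and 1.57 CPM and then 13.3 and 5.37 CPM, and rose by 3.33 with suh-dbm, 4.37 with dnmcidas added and 3.19 with nicd (adjusted p = 0.0495, 0.0291 and 0.033). Of the 8 genes 2, 2, 2 and 1 rose, and 2, 2, 5 and 1 with the block.

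Cytoskeleton, junction and envelope genes numbered 13. They include the myosin genes myh14.L and myo1d.L, the plakin gene dst.L, the desmosomal cadherin gene dsg4.L, the transglutaminase gene tgm5.L, the mesothelin gene msln.L and the gene listed as ahnak2.S_LOC108699763 (ahnak2.S below). Uninjected ahnak2.S had 0 and 0.0734 CPM at st10.5, 312 and 384 CPM at st25 and 1721 and 1613 CPM at st32. With nicd, ahnak2.S (4.58 ± 0.94, edgeR adjusted p = 0.00767), myh14.L (4.89 ± 0.90, adjusted p = 0.00383), msln.L (4.28 ± 0.71, adjusted p = 0.00183) and synpo.L (3.58 ± 0.95, adjusted p = 0.039) rose. msln.L also rose with suh-dbm plus dnmcidas and rai14.S with the morpholino, and no gene of the group was called with suh-dbm. With the block 1, 5, 7 and 2 rose. For the remaining 30 genes, of which 0, 0, 7 and 1 rose (4, 3, 14 and 7 with the block), no role is given, among them several known only by an ID. One of these, Xelaev18047861m, rose with nicd from 0.147 and 0.0751 CPM to 7.09 and 19.0 CPM (6.77 ± 1.79, adjusted p = 0.0338) and was called with the morpholino (7.42 ± 1.82, adjusted p = 0.044), where its st32 values of 40.4 and 0.523 CPM lay far apart. Without any 1 of the 4 nicd libraries, or of 3 of the 4 morpholino libraries, the call was lost.

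Whether the late step itself differed between treatments was tested by the interaction of stage and treatment. No gene of the 150 was called for nicd against suh-dbm (0.00316% of all tested genes were called higher and 0.0126% lower by edgeR) or for suh-dbm plus dnmcidas against suh-dbm (0% and 0%), nor with the experiment as a block (0.00948% and 0.0253%, 0% and 0%). DESeq2 called none either. At an unadjusted p under 0.05, 10 and 9 of the 150 passed. The share of all tested genes at this cut was not counted, so nothing is read from these counts. The median difference of the steps was 0.11 and 0.26 on the log2 scale. By experiment these medians were 0.41 and 0.57 in experiment 1, and -0.16 and -0.24 in experiment 2, so their direction was not shared. The smallest p in the nicd test was that of lamb4.L, whose step was larger with nicd by 3.21 ± 0.96 (adjusted p = 0.429). These tests do not show that the steps were alike.

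Levels at st32 did differ between treatments for the genes called in the contrasts below. The order of the means is given first, as a description with no test and no count over all tested genes. Among the 4 injected treatments the mean was highest with suh-dbm for 80 of the 150 genes, with nicd for 35, with suh-dbm plus dnmcidas for 19 and with the morpholino for 16, and lowest with nicd for 79. The median ratio to the uninjected mean was 0.879 with suh-dbm, 0.672 with the morpholino, 0.627 with suh-dbm plus dnmcidas and 0.444 with nicd. These ratios carry no test, since the uninjected values chose the genes, and a choice by high uninjected st32 levels favours ratios below 1.

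Nicd against suh-dbm at st32 compares explants injected early with mRNA that raises or blocks Notch signalling. By st32 rbpj.S stood at 6.659 and 128.4 CPM with suh-dbm, against 3.797 and 4.903 CPM in uninjected explants. The level of notch1.S was 94.92 and 379.4 CPM with nicd, against 11.83 and 11.39 CPM uninjected. Whether Notch signalling was still raised or blocked at st32 was not tested. The contrast gave 18 genes lower (6.91% of all tested genes) and 2 higher (4.02%). With the experiment as a block these were 30 and 7 (8.55% and 5.72%). The median log2 difference was -1.002 over the 150 and 0 over all tested genes. By experiment it was -1.50 in experiment 1 and -0.44 in experiment 2. Without the nicd library of experiment 1 or 2, 4 and 7 genes were called lower, and without the suh-dbm library of experiment 1, 3 were. Of the higher genes 1 was left without the nicd library of experiment 1 or either suh-dbm library. The multiciliated and ionocyte markers moved with this contrast: 8 of 16 and 13 of 14 tested copies were lower, and at st32 the multiciliated sum was 6.13 and 4.73 CPM with nicd against 327 and 349 CPM with suh-dbm, the ionocyte sum 248 and 186 CPM against 6030 and 9613 CPM. Hatching and cement gland markers summed to 2515 and 1127 CPM with nicd against 199 and 247 CPM, and 6 of 8 were higher. Their part in the values of the 150 genes was not tested.

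**Figure D4:**
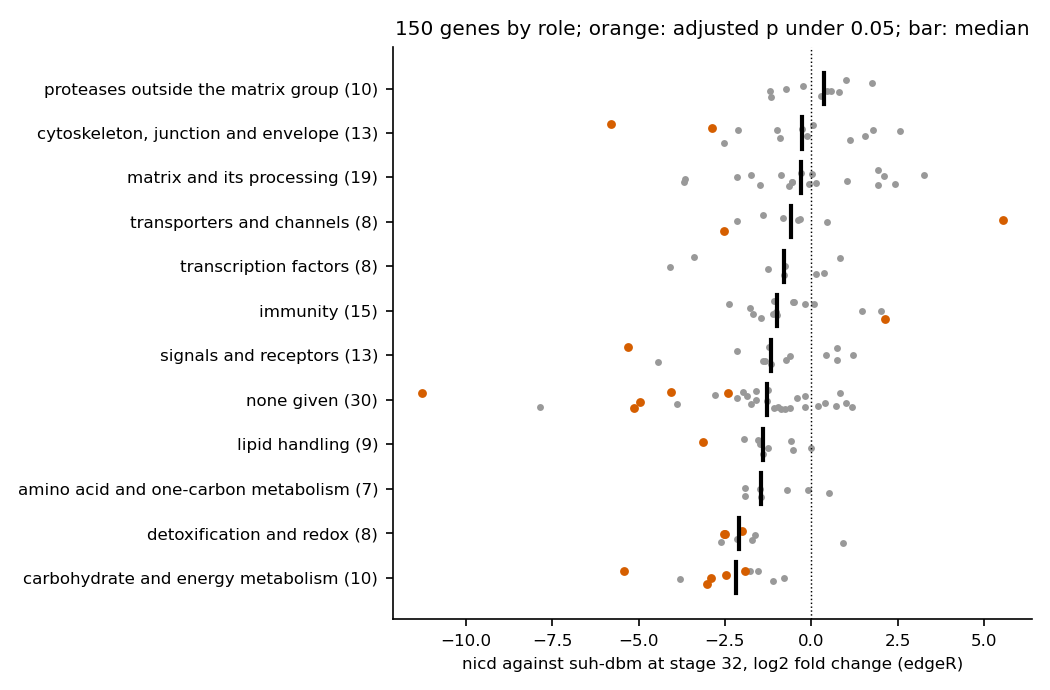
Log2 difference (edgeR) between nicd and suh-dbm explants at st32 for each of the 150 genes (points), by role with the number of genes in brackets; orange points have an adjusted p under 0.05 and bars are group medians. Carbohydrate and detoxification genes lie lowest, and matrix, cytoskeleton and protease genes spread around 0.

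By role the difference was uneven. Of the 10 carbohydrate genes all were below 0 and 5 were called lower (median -2.19, and -2.78 and -1.20 in the single experiments). Their summed level was 1487 and 1738 CPM with nicd against 8155 and 4254 CPM with suh-dbm. The 8 detoxification genes had a median of -2.09 with 3 called lower (ddt.S, gstp1.L and cyp3a4), and the amino acid and lipid groups medians of -1.45 and -1.40 with 0 and 1 called (3 and 3 with the block). For the 19 matrix genes the median was -0.29, no gene was called in either direction and 8 lay above 0. With the block mxra5.L and fbn3.L were called higher and mrc2.S lower. This median was -1.45 in experiment 1 and 0.67 in experiment 2, so the direction was not shared. Of the 26 mesenchymal copies tested 4 were higher with nicd (vim.L, vim.S, snai1.S and fn1.S), and their part in the matrix values was not tested. The cytoskeleton and signal groups also had medians of opposite sign in the 2 experiments (-1.18 and 0.44, -1.61 and 0.22). No test of one role group against another was made.

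The called genes spanned wide differences in level. msln.L had 12.8 and 13.9 CPM with nicd against 864.5 and 577.3 CPM with suh-dbm, a log2 difference of -5.80 ± 0.72 (edgeR adjusted p = 2.958e-06). Its uninjected level was 344 and 218 CPM, between the 2. ldhb.S had 619 and 643 CPM against 4479 and 2222 CPM (-2.46 ± 0.53, adjusted p = 0.00235), and gapdh.S 93.4 and 67.3 CPM against 824 and 342 CPM (-2.90 ± 0.77, adjusted p = 0.0127). gstp1.L had 48.1 and 19.3 CPM against 238 and 140 CPM (-2.53 ± 0.69, adjusted p = 0.0192). kremen1.S had 0.325 and 0.216 CPM against 13.7 and 7.22 CPM (-5.29 ± 1.05, adjusted p = 0.00115). In all 5 genes both nicd libraries lay below both suh-dbm libraries. Xetrov90012811m.S had no count with nicd and 14.1 and 0.888 CPM with suh-dbm, at least 180-fold lower at the floor of 3 counts over the group (adjusted p = 0.0417). Calls without single libraries were followed gene by gene for 7 of the called genes and not for the others. Of these, gapdh.S, ldhb.L (-3.01 ± 0.84, adjusted p = 0.0189) and MGC81872.S (-5.12 ± 1.24, adjusted p = 0.0101) lost their call without either nicd library or without the suh-dbm library of experiment 1 (adjusted p up to 0.596), and st6gal1.L (-4.07 ± 1.26, adjusted p = 0.0365) without 3 of the 4 libraries. msln.L and trpa1.L kept their call without each library.

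The 2 genes that were higher with nicd were trpa1.L and anxa1.L. trpa1.L had 138 and 61.0 CPM with nicd against 2.44 and 1.68 CPM with suh-dbm (5.55 ± 1.18, edgeR adjusted p = 0.0022). Other st32 libraries held 6.97 and 2.70 CPM (uninjected), 10.3 and 5.33 CPM (suh-dbm plus dnmcidas) and 4.83 and 1.14 CPM (morpholino), and nicd explants already had 26.5 and 27.1 CPM at st25. anxa1.L had 228 and 138 CPM against 42.4 and 39.2 CPM (2.12 ± 0.51, adjusted p = 0.00629), a call lost without the nicd or the suh-dbm library of experiment 1, or the suh-dbm library of experiment 2 (adjusted p up to 0.0967). mxra5.L (107 and 176 CPM against 3.78 and 24.8 CPM), fbn3.L (325 and 185 CPM against 91.6 and 38.0 CPM) and rai14.S (138 and 73.8 CPM against 30.1 and 29.7 CPM) were called higher with the experiment as a block and not without it.

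Nicd against the foxa1 morpholino at st32 shares the nicd libraries with that contrast, so the values are given side by side only. 4 genes were higher (3.26% of all tested genes) and 10 lower (5.42%), or 9 and 14 with the experiment as a block (4.77% and 6.94%). The median over the 150 was -0.59, but -1.18 in experiment 1 and 0.28 in experiment 2. trpa1.L was higher by 5.02 ± 1.15 (edgeR adjusted p = 0.00536), rai14.S by 2.80 ± 0.63 (adjusted p = 0.00397), cpxm1.L by 2.64 ± 0.78 (adjusted p = 0.0357) and anxa1.L by 2.14 ± 0.51 (adjusted p = 0.00717). Among the lower genes, msln.L had 175 and 176 CPM with the morpholino (-3.77 ± 0.66, adjusted p = 0.000279) and tgm5.L, an enzyme that cross-links the cell envelope, had 64.5 and 64.8 CPM against 1.24 and 9.51 CPM with nicd (-3.65 ± 0.78, adjusted p = 0.00255). Called lower as well were MGC154409 (-5.40 ± 1.69, adjusted p = 0.0474), gstp1.L (-2.71 ± 0.70, adjusted p = 0.0155) and msmb.3.L (-2.45 ± 0.73, adjusted p = 0.0351). The morpholino libraries of MGC154409 were far apart, with a mean of 23.6 CPM and a standard deviation of 31.8 CPM. Its call was lost without 3 of the 4 libraries, and that of gstp1.L without 2. None was called higher without the nicd library of experiment 1 or the morpholino library of experiment 2. Lower calls numbered 2 without the nicd library of experiment 1, 3 without that of experiment 2 and 3 without the morpholino library of experiment 1. cpxm1.L and msmb.3.L lost their call without each of the 4 libraries, and tgm5.L without the nicd library of experiment 1 (adjusted p = 0.0648).

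Adding dnmcidas to suh-dbm lowered 1 gene of the 150 at st32 (2.32% of all tested genes were lower) and raised none (0.6%). That gene was cds1.L, which encodes a CDP-diacylglycerol synthase of phospholipid synthesis, with 1.31 and 0.410 CPM against 13.2 and 3.62 CPM (-3.45 ± 0.95, edgeR adjusted p = 0.044). The median over the 150 was -0.76, with -0.76 in experiment 1 and -0.73 in experiment 2. At an unadjusted p under 0.05, 20 genes were lower and 1 higher, and the share of all tested genes at this cut was not counted. With the experiment as a block 4 were lower (2.63% of all tested genes, with 0.901% higher): cds1.L, ldhb.S (1558 and 548 CPM against 4479 and 2222 CPM), gstp1.L (57.6 and 15.6 CPM against 238 and 140 CPM) and glud1.S (38.0 and 51.0 CPM against 96.5 and 117 CPM). None was called without the suh-dbm library of experiment 1 or the dnmcidas library of experiment 2, and 2 were without either of the other two. Of the multiciliated markers 8 of 16 were lower and 1 higher in this contrast, and their part in the values of the 150 genes was not tested. The higher one was mcidas.S, whose counts also hold the injected dnmcidas mRNA (142 and 234 CPM against 0.268 and 0.214 CPM). Suh-dbm against the foxa1 morpholino called no gene of the 150 by edgeR (0.0411% of all tested genes were higher and 0.0221% lower). None was called with the block (0.111% and 0.0569%) or by DESeq2 either. The median was 0.39, and 2 of 150 passed at an unadjusted p under 0.05, again without a count over all tested genes.

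**Figure D5:**
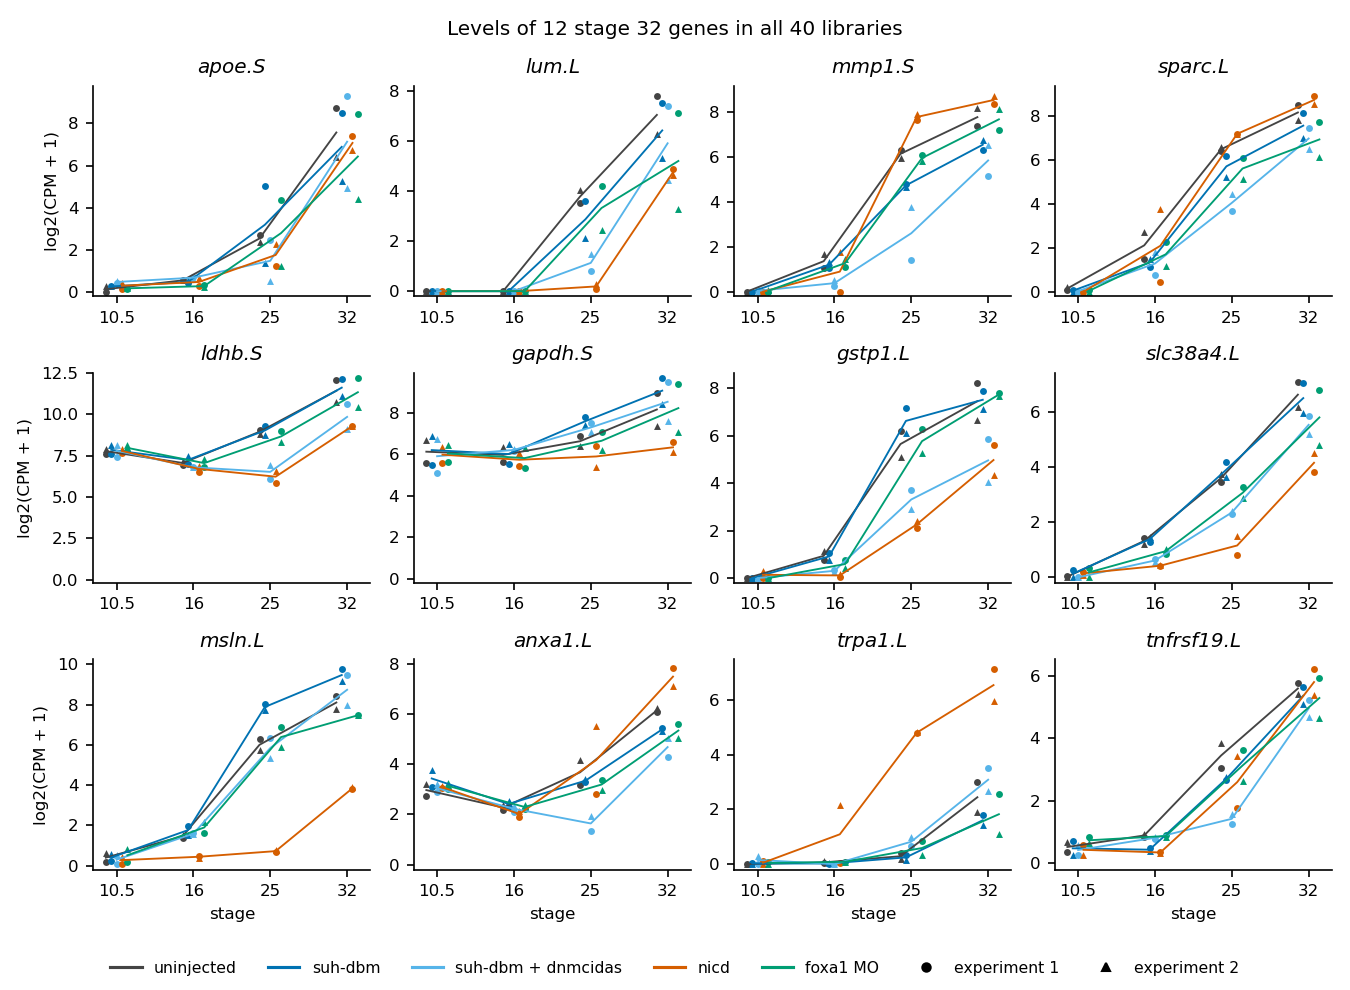
Level of 12 of the genes (log2(CPM + 1)) in all 40 libraries by stage, coloured by treatment, with circles for experiment 1, triangles for experiment 2 and lines through the mean of both on this scale. At st32 trpa1.L is higher with nicd (138 and 61.0 CPM) than in every other library, msln.L is lower (12.8 and 13.9 CPM), and mmp1.S (322 and 418 CPM) and sparc.L (479 and 367 CPM) are highest with nicd.

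Xenopus laevis carries L and S copies of many genes. The 150 genes have 140 base symbols, and in 10 cases both copies are in the set, among them apoe, lum, ldhb, mmp8, ifitm3, elf3, ctsz, wnt10a and plekhb2. L copies made up 92, S copies 50, and 8 symbols have no ending. L copies were 64.8% of the L and S members and 57.4% of those left by the rule. For members with a single copy in the set, 65 other copies are listed outside it, and anxa1.L and abhd1 have more than a single one. The score of these other copies was above 0 in 37 cases and above 1 in 12, with a median of 0.0587. The st32 uninjected mean of fgfbp1.L was 261 CPM at a score of 0.72, against 49.7 CPM and 5.60 for fgfbp1.S, and that of egfl6.L was 2.90 CPM against 106 CPM for egfl6.S. That of anxa1.L was 69.5 CPM, below 389 CPM for anxa1.S and 105 CPM for the entry anxa1. That of gapdh.S was 327 CPM, above 41.7 CPM for gapdh.L. Values given for a member cover that copy only. How reads that fit both copies were counted is not given in the sources used here, so the split between copies is uncertain. Libraries were not stranded, so overlapping genes on opposite strands cannot be told apart. Levels are not scaled by gene length and are compared within a gene only.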

How the data were processed

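Gene counts of 40 libraries were analysed (poly-A selected, non-stranded TruSeq v2, paired-end). Per the submitters' processing notes, FastQC 0.11.5, STAR 2.6.0b-1, featureCounts 1.6.3 and DESeq2 1.22.1 were used, and the genome build and annotation are not given in the sources used here. The values deposited by the authors are raw counts per gene. From these, CPM by library total and the score were computed. Tests used edgeR 4.0.16 (R 4.3.3) with TMM scaling, filterByExpr (minimum count 10, minimum total 15) and 20 groups of 2 libraries in 1 fit, leaving 20 residual degrees of freedom; p-values were adjusted over 31648 genes at a threshold of 0.05. The scripts were tested on simulated data. Alternatives were RLE scaling, no filter on low counts, DESeq2 1.42.0, the experiment as a replicate block, leaving out each library, and other forms of the score.

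The members, gene lists, roles and tests were chosen with earlier results of these data known, and the role groups and the mesenchyme list after the members were seen. Named genes were up to 5 per direction and contrast with the largest change among called members with a mean log2 CPM of at least 1 and the same sign in both experiments, the genes with the highest scores or next to the limit, and members that are regulators or on a list. The labels tie a replicate number to 1 female and fertilization, so the numbers pair libraries: over 28 pairs of 8 groups the deviations from the group means correlated at r from 0.140 to 0.613 (median 0.326, 31648 genes). With 2 libraries per group, p-values of the main fit measure the spread between 2 fertilizations, pooled over the 20 groups. With the experiment as a block, the mean difference between the fertilizations is taken out of that spread.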

Additional observations from a re-analysis of the deposited data

How the results depend on the processing

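With RLE scaling every count of called members stayed within 1.5 times its value and none of the 36 calls of named genes, which were chosen for the same sign in both experiments, reversed under any alternative run. Medians over groups of genes did differ in sign between the experiments, as given with them. Genes called higher from st25 to st32 with suh-dbm, suh-dbm plus dnmcidas, nicd and the morpholino numbered 47, 69, 74 and 51 with no filter on low counts, 49, 67, 76 and 50 with DESeq2, and, with the replicate block, 33, 44, 68 and 38. Leaving out 1 library gave 0 to 12, 0 to 28, 0 to 41 and 0 to 26. With no filter, DESeq2 and the replicate block, genes lower with dnmcidas against suh-dbm alone numbered 7, 4 and 4 (0 to 2 without 1 library), genes higher with nicd against suh-dbm 7, 5 and 7 (1 to 2), and lower 35, 29 and 30 (3 to 17). For nicd against the morpholino these were 9, 7 and 9 higher (0 to 4) and 20, 19 and 14 lower (2 to 13). For the interaction of dnmcidas and stage, no filter gave 1 gene higher against 0. The cause of these shifts was not tested. The share of all tested genes called with no filter, with DESeq2 or without 1 library was not counted. Those counts of members thus have no background beside them. Of 36 calls of named genes, pltp.L and trpm8b.L with suh-dbm were lost under RLE scaling, none with no filter, DESeq2 or the replicate block, and when 1 library was left out 47 calls held and 97 were lost. Of the 150 genes 102 were chosen with 0.1 CPM in place of 1 CPM in the score, 96 with 5 CPM, 146 with TMM-scaled CPM, 127 from experiment 1 alone and 102 from experiment 2 alone. A search of promoter motifs was not run, since no sequences were at hand. Library totals of 20177357 to 99359750 counts leave the levels of genes far below 1 CPM to a few counts each.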

Other observations

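Other gene lists, some of which share members with the 150 genes, were counted in the nicd contrasts. From st25 to st32 with nicd, where 1.69% of all tested genes rose and 2.32% fell, 3 of 52 tested copies of innate immunity genes rose (c9.L and cfi.S of the complement system, and irf8.L), and 5 of 46 copies of detoxification and retinoid genes did, of which aldh1a1.L, gstp1.L, cyp4b1.L and cyp3a4 are among the 150 and hmox1.S is not. cyp26a1.S, a gene of retinoic acid breakdown, fell. In the list of desmosome and envelope genes 4 of 32 fell, the uroplakin genes upk1a.L, upk1b.S and upk3a.L and the plakophilin gene pkp3.L. The lipid list had 3 higher (apoe.S and pltp.L, which are among the 150, and lipg.L) and 1 lower of 38, ion channels and transport 2 and 3 of 51, peptidases 1 and 0 of 44, circadian clock 1 and 0 of 21, and mucins (23 tested) and the thyroid and glucocorticoid axis (24 tested) none by edgeR at an adjusted p under 0.05.

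Between nicd and suh-dbm at st32, 8 innate immunity copies were higher with nicd, among them the complement genes c9.L, cfi.S, cfh.L and cfb.L, the prostaglandin synthase genes ptgs2.L and ptgs2.S, and tlr5.L, and 1 was lower (irf8.L). Of the detoxification list 4 were higher, including both copies of cyp26c1, and 5 lower, 3 of them conjugating enzyme genes of the glutathione transferase family (gstm1.L, gsta1.S and gstp1.L, which is among the 150). Ion channels and transport had 6 higher and 7 lower, peptidases 4 and 2, mucins 3 and 1, desmosome and envelope 2 and 2, lipid 0 and 1, circadian clock 0 and 1, and thyroid and glucocorticoid 1 and 0. All of these are calls of edgeR's quasi-likelihood test over all 31648 genes, of which 4.02% were higher and 6.91% lower.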
